A study of Mus musculus with 6 samples.

Results

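The genes described here are 9 components of tight and gap junctions, taken by symbol from the 54232 gene IDs that each count table lists: the claudin genes Cldn1, Cldn4 and Cldn7, the occludin gene Ocln, the scaffold gene Tjp1, and the connexin genes Gja1, Gjb2, Gjb5 and Gjb6. All 9 were found and all 9 passed the filter on low counts. They were measured by polyA RNA sequencing in esophagus from mice that drank the carcinogen 4-nitroquinoline 1-oxide (4-NQO), which induces squamous carcinoma. The DTA-1 group (3 libraries) received DTA-1, an agonist antibody to GITR, a co-stimulatory receptor on T cells. The isotype group (3 libraries) received an isotype control antibody. Mice of both groups began at 8 weeks of age with 100 µg/ml 4-NQO for 16 weeks, then had 12 weeks of plain water, and were given 10 µg of antibody 2 times per week over the last 2.5 weeks. The tissue, per the labels, was enriched for invading cells. Strain, sex and genotype are not given in the labels, no group without 4-NQO is part of the comparison, and nothing states that the libraries come from different mice. P-values therefore reflect the spread among these samples alone, and part of it may be technical. Values of a group are listed in the order of replicates 1, 2 and 3.

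Tight junctions seal the space between neighbouring epithelial cells. Claudins form the sealing strands, occludin joins them, and zonula occludens scaffolds such as the Tjp1 product tie them to the actin skeleton. Gap junctions are clusters of channels built from connexins that let ions and small metabolites pass between cells. In stratified squamous epithelium such as that lining the mouse esophagus, connexins are found in the living layers, and tight junction proteins help to restrict passage through the upper layers.

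The libraries held 23147873 to 29065162 counts, and 3 reads, taken here as the detection floor, lay between 0.103 and 0.130 CPM (read counts relative to TMM-scaled library size), a limit that covers counting error only. Of the 11 keratinocyte markers used as a reference (such as Krt5, Krt14, Trp63 and Cdh1), none was at 0, and their summed level was 4132 to 14897 CPM in DTA-1 libraries, against 8117 to 20512 CPM in isotype libraries. The highest DTA-1 value was that of replicate 1, and replicates 2 and 3 stood at 4132 and 5291 CPM. The 13 striated muscle markers summed to 95173 to 142020 CPM with DTA-1 and to 43655 to 90163 CPM with isotype. Stomach and simple epithelium markers (14 genes) summed to 7.02 to 337 CPM with DTA-1 and to 14.3 to 2564 CPM with isotype, the highest value being isotype replicate 3, and Muc5ac, Muc6, Tff1, Gkn2 and Gif were at 0 in at least 1 other library. The part of these differences in tissue makeup in the results was not tested. In whole tissue, fewer epithelial cells and less junction RNA per epithelial cell cannot be told apart.

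All 9 junction genes had a lower mean with DTA-1, and none passed the test. Each fold change is the log2 of the DTA-1 level over the isotype level, from edgeR's quasi-likelihood test over 15763 genes, and the 9 genes ranged from -0.35 to -1.22, with a median of -0.91. The median over all genes tested was -0.03, and 52.9% of them had a negative value. EdgeR called 0 of the 9 at a Benjamini-Hochberg adjusted p under 0.05, and it called 0% of all genes in either direction, with a smallest adjusted p of 0.39. At an unadjusted p under 0.05 it counted 2 of the 9, Cldn1 and Ocln, both lower, where 7.52% of all genes were counted as lower and 5.21% as higher. DESeq2 called 0 of the 9 (background 0.852% lower and 0.267% higher) and had 3 at the unadjusted level, all lower (background 8.37% lower and 6.67% higher). It gave no p-value for Cldn7 in this fit. Limma-voom called 0 (background 0%) and had 4 at the unadjusted level (background 8.49% lower and 5.28% higher). In 3 genes, Cldn1, Ocln and Gja1, the 3 DTA-1 values were all below the 3 isotype values, an arrangement found in 9.38% of all genes tested, with the opposite one in 8.6%.

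**Figure D1:**
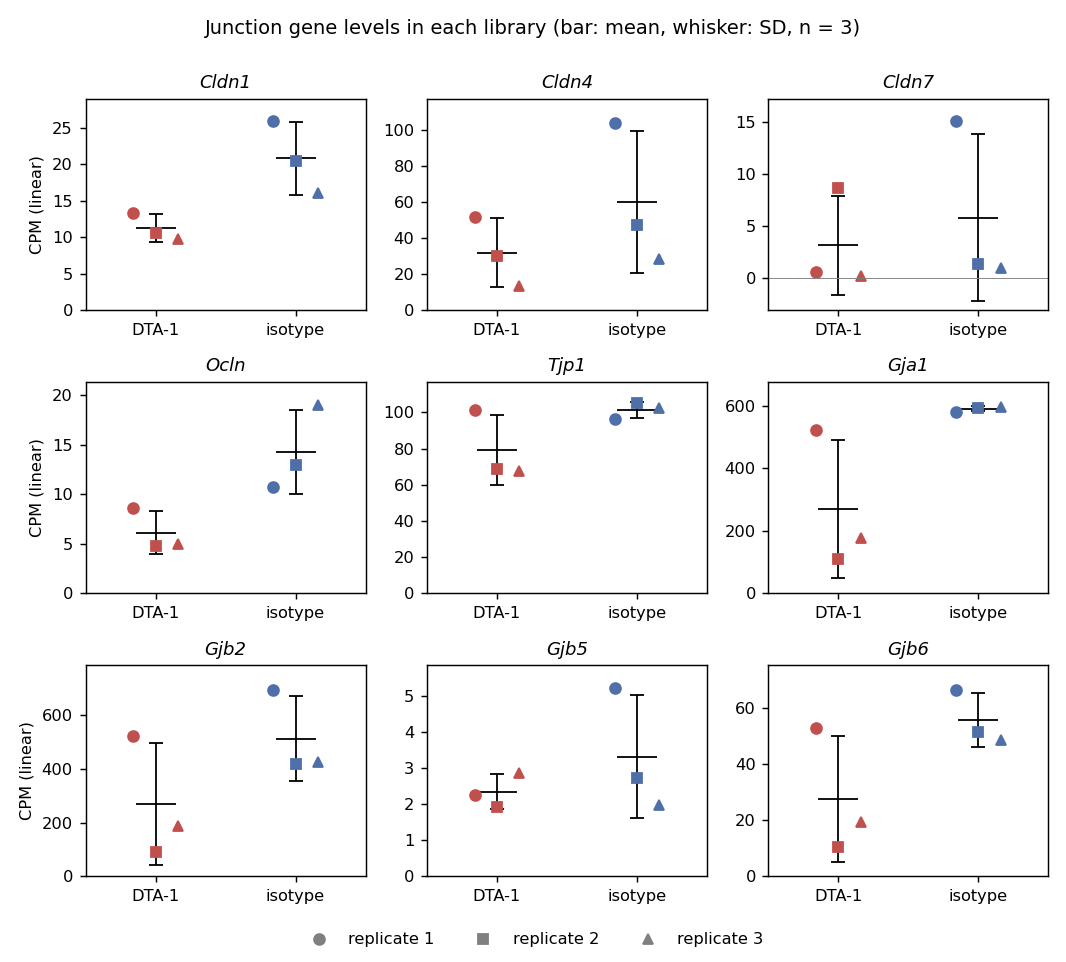
CPM on linear axes for the 9 junction genes, with DTA-1 libraries in red on the left and isotype libraries in blue on the right of each panel. Markers are replicates, the horizontal bar is the mean and the whisker is the SD of 3 libraries. In Gja1, Gjb2 and Gjb6 DTA-1 replicate 1 (circle) sits near the isotype libraries and replicates 2 and 3 sit far lower, while in Cldn1 and Ocln all 3 DTA-1 points lie below all isotype points, replicate 1 being the highest of them.

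The 2 most abundant of the 9 genes were the connexin genes Gjb2 and Gja1. Levels between genes were compared per length, as CPM per kb of annotated exon. Gjb2, a beta connexin of keratinocytes whose human counterpart is mutated in inherited deafness and in skin disease, led in both groups with 111 ± 94.1 CPM per kb under DTA-1 and 213 ± 65.5 CPM per kb under isotype (SD, n = 3 each). In isotype libraries the order of mean level per length was Gjb2, Gja1, Cldn4, Gjb6, Tjp1, Cldn1, Ocln, Cldn7 and Gjb5. The library ranges of neighbours in that order were separate between Gjb2 and Gja1, between Gjb6 and Tjp1, and between Tjp1 and Cldn1, and overlapped elsewhere. In DTA-1 libraries the order was Gjb2, Gja1, Cldn4, Gjb6, Tjp1, Cldn1, Cldn7, Ocln and Gjb5, and the single gap between neighbours lay between Tjp1 (10.1 ± 2.46 CPM per kb) and Cldn1 (2.32 ± 0.398 CPM per kb). Behind Gjb2, Gja1 had 26.3 ± 21.7 CPM per kb under DTA-1 and 57.6 ± 0.763 under isotype, Cldn4 had 17.5 ± 10.6 under DTA-1 and 33.0 ± 21.7 under isotype, and Gjb6 had 10.4 ± 8.38 under DTA-1 and 20.8 ± 3.59 under isotype. The 4 genes of lowest level, Cldn1, Cldn7, Ocln and Gjb5, had means of 1.37 to 2.32 CPM per kb under DTA-1 and of 1.92 to 4.31 CPM per kb under isotype.

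Gja1, Gjb2 and Gjb6 were high in 4 libraries and low in DTA-1 replicates 2 and 3. Gja1 (chromosome 10, 56377330 to 56402513, GRCm38, ENSMUSG00000050953) encodes a connexin that fibroblasts and muscle cells make as well as epithelia. Its level was 524, 109.7 and 176 CPM under DTA-1 and 582, 593 and 597 CPM under isotype. The 3 isotype values spanned a narrow range (590.6 ± 7.82 CPM), the DTA-1 libraries a wide one (269.8 ± 222 CPM, SD, n = 3 each), and the groups did not overlap. The log2 fold change was -1.13 ± 0.55 (SE), with an adjusted p of 0.409 in edgeR and 0.273 in DESeq2. Fibroblast markers (8 genes) summed to 749.7 to 1736 CPM with DTA-1 and to 846 to 3094 CPM with isotype, and smooth muscle markers (7 genes) to 13447 to 20760 CPM with DTA-1 and to 8085 to 15758 CPM with isotype. Des, which striated muscle shares, made up 13167 of the 13855 CPM of the smooth muscle list in DTA-1 replicate 2. The smooth muscle actin gene Acta2 stood at 1118, 353 and 2887 CPM under DTA-1 and 434, 2475 and 1836 CPM under isotype, lowest in DTA-1 replicate 2 and highest in DTA-1 replicate 3. The part of these cells in the Gja1 values was not tested.

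Gjb2 (chromosome 14, 57098600 to 57104702, ENSMUSG00000046352) stood at 524, 92.7 and 188 CPM under DTA-1 and 694, 419 and 424 CPM under isotype. Here DTA-1 replicate 1 exceeded isotype replicates 2 and 3, so the groups overlapped. Gjb6 (chromosome 14, 57123303 to 57133611, ENSMUSG00000040055), on the same strand and close to Gjb2, encodes a connexin that can join the Gjb2 product in mixed channels. It stood at 53.05, 10.6 and 19.5 CPM under DTA-1 and 66.7, 51.6 and 48.8 CPM under isotype, with the same overlap through DTA-1 replicate 1. Group means were 268 ± 226 CPM under DTA-1 and 512 ± 158 CPM under isotype for Gjb2, and 27.7 ± 22.4 CPM under DTA-1 and 55.7 ± 9.60 CPM under isotype for Gjb6. The log2 fold changes were -0.93 ± 0.60 (SE) for Gjb2 and -1.01 ± 0.54 for Gjb6, with adjusted p of 0.497 and 0.431 in edgeR.

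These 3 connexin genes had the most similar profiles among all pairs of the 9 genes. Profiles were compared as log2 CPM centred on each gene's mean, and the root mean square difference over the 6 libraries was 0.124 for Gjb2 and Gjb6, 0.175 for Gja1 and Gjb6 and 0.288 for Gja1 and Gjb2. The next closest pair, Cldn1 and Tjp1, differed by 0.343. Some genes outside the 9 had a similar pattern, and Ly6g6c was nearer to Gja1 (0.1) than Gjb6 was. The keratinocyte marker Perp stood at 2241, 458 and 618 CPM under DTA-1 and 2002, 2080 and 1985 CPM under isotype. Pkp1 stood at 1373, 278 and 333 CPM under DTA-1 and 1202, 1157 and 1090 CPM under isotype. Several other keratinocyte markers differed. Krt15 had 196, 289 and 23.1 CPM under DTA-1. Krt14, Itgb4 and Col17a1 were low in isotype replicate 3 (1508, 91.0 and 375 CPM). There they stood below DTA-1 replicate 1 (6310, 163 and 685 CPM). As a ratio of levels per length, Gjb2 over Gjb6 was 10.97, 9.76 and 10.7 under DTA-1 and 11.6, 9.01 and 9.65 under isotype, while Gjb2 itself ranged from 92.7 to 694 CPM. The mean ratio was 10.5 ± 0.637 under DTA-1 and 10.1 ± 1.33 under isotype (SD, n = 3 each; exact two-sided permutation p = 0.7, where 0.1 is the smallest that 3 against 3 allows).

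**Figure D2:**
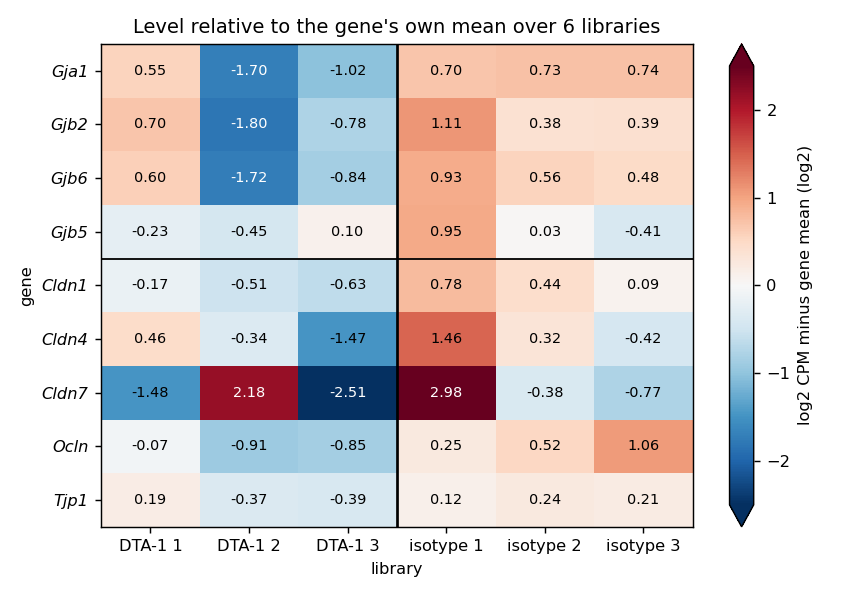
Heat map of log2 CPM minus the gene's mean over the 6 libraries, with genes in rows (connexins above the line, tight junction genes under it) and libraries in columns, DTA-1 left of the line. Gja1, Gjb2 and Gjb6 show the same sequence of colours, with their lowest values in DTA-1 replicate 2 (-1.70, -1.80 and -1.72), whereas Cldn7 is high in DTA-1 replicate 2 and isotype replicate 1.

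These 3 genes varied together, though not they alone. The 250 bases upstream of their RefSeq gene starts (GRCm38.p6) are shown 5′ to 3′ on the strand of the gene. Capitals mark matches on either strand to any of 5 motifs, none of which overlap in these windows.
Gjb2 (chr14:57104703-57104952, minus strand): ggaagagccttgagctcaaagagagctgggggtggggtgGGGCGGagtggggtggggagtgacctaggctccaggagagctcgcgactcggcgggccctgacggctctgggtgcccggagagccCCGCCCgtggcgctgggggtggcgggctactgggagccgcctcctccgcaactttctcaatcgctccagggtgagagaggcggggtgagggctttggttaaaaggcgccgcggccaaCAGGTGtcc
Gjb6 (chr14:57133612-57133861, minus strand): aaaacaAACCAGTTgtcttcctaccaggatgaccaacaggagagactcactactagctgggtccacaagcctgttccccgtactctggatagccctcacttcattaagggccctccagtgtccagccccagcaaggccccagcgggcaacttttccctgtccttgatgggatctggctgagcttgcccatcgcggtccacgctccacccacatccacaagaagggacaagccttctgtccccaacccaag
Gja1 (chr10:56377050-56377299, plus strand): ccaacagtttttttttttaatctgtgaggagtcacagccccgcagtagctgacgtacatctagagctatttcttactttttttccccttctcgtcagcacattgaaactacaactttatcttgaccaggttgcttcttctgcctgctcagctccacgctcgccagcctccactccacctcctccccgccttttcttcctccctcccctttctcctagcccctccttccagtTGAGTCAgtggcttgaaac
The motifs searched were the AP-1 site TGANTCA, the E-box CACCTG bound by Snail and Zeb factors, the GC box GGGCGG, the TATA element TATAAA and the grainyhead site AACNNGTT. Windows of the same length upstream of all 32851 RefSeq starts held them in 6.75%, 17.2%, 32.7%, 12.4% and 3.64% of cases, in that order. The Gjb2 window held 2 GC boxes and 1 E-box, the Gjb6 window 1 grainyhead match, and the Gja1 window 1 AP-1 match, so that no motif searched was shared by any pair of the 3 windows. A match describes letters and not a measured site, and a missing match says only that those letters are not in the window.

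Gjb5 (chromosome 4, 127354809 to 127358181, ENSMUSG00000042357), a connexin gene of stratified epithelium and placenta, was scarce, and its highest DTA-1 value was replicate 3, where the other 3 connexin genes were low. It stood at 2.26, 1.93 and 2.87 CPM (52, 41 and 67 reads) under DTA-1 and 5.23, 2.72 and 1.98 CPM (142, 72 and 55 reads) under isotype. The groups overlapped, isotype replicate 1 alone standing high. The log2 fold change of -0.49 ± 0.44 (SE, adjusted p = 0.606 in edgeR) was 0.016 without isotype replicate 1.

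Among the tight junction genes, Cldn1 and Ocln had DTA-1 values that were all below the isotype values. Cldn1 (chromosome 16, 26356642 to 26371841, ENSMUSG00000022512), whose product is required for the epidermal water barrier in mice, stood at 13.4, 10.6 and 9.71 CPM under DTA-1 and 26.0, 20.5 and 16.1 CPM under isotype. The means were 11.2 ± 1.93 CPM under DTA-1 and 20.9 ± 4.99 CPM under isotype (SD, n = 3 each). Its log2 fold change was -0.89 ± 0.25 (SE), with an unadjusted p of 0.00796 and an adjusted p of 0.39 in edgeR and an adjusted p of 0.0984 in DESeq2. The highest DTA-1 library was replicate 1 and the lowest isotype library was replicate 3.

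Ocln (chromosome 13, 100496507 to 100552718, ENSMUSG00000021638) encodes a membrane-spanning strand protein. It had the most negative fold change of the 9 genes in edgeR with all 6 libraries. In limma-voom Gja1 (-1.46) was more negative than Ocln (-1.23). Ocln stood at 8.61, 4.76 and 4.96 CPM under DTA-1 and 10.8, 13.0 and 19.0 CPM under isotype, with means of 6.11 ± 2.17 CPM under DTA-1 and 14.2 ± 4.25 CPM under isotype (SD, n = 3 each). The log2 fold change was -1.22 ± 0.34 (SE), with an unadjusted p of 0.00878 and an adjusted p of 0.39 in edgeR and an adjusted p of 0.0738 in DESeq2. Its highest isotype library was replicate 3, in which Cldn1 and Cldn4 were at their isotype minimum. Without that library the edgeR log2 fold change of Ocln was -0.93.

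Tjp1 (chromosome 7, 65296165 to 65527781, ENSMUSG00000030516), a scaffold gene also used by endothelium and many other cells, differed least in mean. It stood at 101, 68.6 and 67.4 CPM under DTA-1 and 96.1, 105 and 102 CPM under isotype, so that DTA-1 replicate 1 resembled the isotype libraries. The means were 79.1 ± 19.2 CPM under DTA-1 and 101 ± 4.57 CPM under isotype. The log2 fold change was -0.35 ± 0.20 (SE, adjusted p = 0.44 in edgeR). The ratio of Tjp1 to Ocln level per length, chosen after the values were seen, was 6.36, 7.80 and 7.34 under DTA-1 and 4.83, 4.37 and 2.92 under isotype. These values did not overlap (exact two-sided permutation p = 0.1, the smallest possible).

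Cldn4 (chromosome 5, 134945119 to 134946934, ENSMUSG00000047501) is a widespread epithelial claudin that binds an enterotoxin of Clostridium perfringens. It stood at 52.0, 29.9 and 13.6 CPM under DTA-1 and 104, 47.2 and 28.2 CPM under isotype. It averaged 31.8 ± 19.3 CPM under DTA-1 and 59.8 ± 39.5 CPM under isotype, so the spread within each group was large, and the groups overlapped. The log2 fold change of -0.91 ± 0.60 (SE, adjusted p = 0.504 in edgeR) was -1.46 without DTA-1 replicate 1 and moved to -0.24 without isotype replicate 1.

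Cldn7 (chromosome 11, 69964779 to 69967885, ENSMUSG00000018569), a claudin found along lateral membranes as well as at tight junctions, was high in 1 library of each group. It stood at 0.609, 8.67 and 0.257 CPM (14, 184 and 6 reads) under DTA-1 and 15.1, 1.40 and 1.05 CPM (409, 37 and 29 reads) under isotype. DTA-1 replicate 2 and isotype replicate 1 were thus far above the other 4 libraries. The log2 fold change of -0.88 ± 1.45 (SE, adjusted p = 0.791 in edgeR) was -3.74 without DTA-1 replicate 2 and turned to 1.38 without isotype replicate 1. Cldn3, a claudin of simple epithelia, was high in the same libraries, at 0, 6.64 and 0.342 CPM under DTA-1 and 11.8, 0.226 and 0.144 CPM under isotype. Wfdc2, the gene with the profile nearest to Cldn7, stood at 9.35, 155 and 5.22 CPM under DTA-1 and 119, 16.4 and 9.56 CPM under isotype. The epithelial adhesion gene Epcam had 78.2 CPM in isotype replicate 1 and 6.93 to 27.0 CPM elsewhere. Of the stomach and simple epithelium markers, Muc1 was likewise highest in isotype replicate 1 (14.3 CPM) and DTA-1 replicate 2 (11.7 CPM), with 11.4 CPM in isotype replicate 3 and 1.26 to 2.05 CPM in the other libraries. Krt8 stood at 0.13, 10.6 and 1.11 CPM under DTA-1 and 2.10, 0.754 and 23.3 CPM under isotype, and Pgc was highest in isotype replicate 3, at 1177 CPM. The part of other epithelia in the Cldn7 values was not tested.

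**Figure D3:**
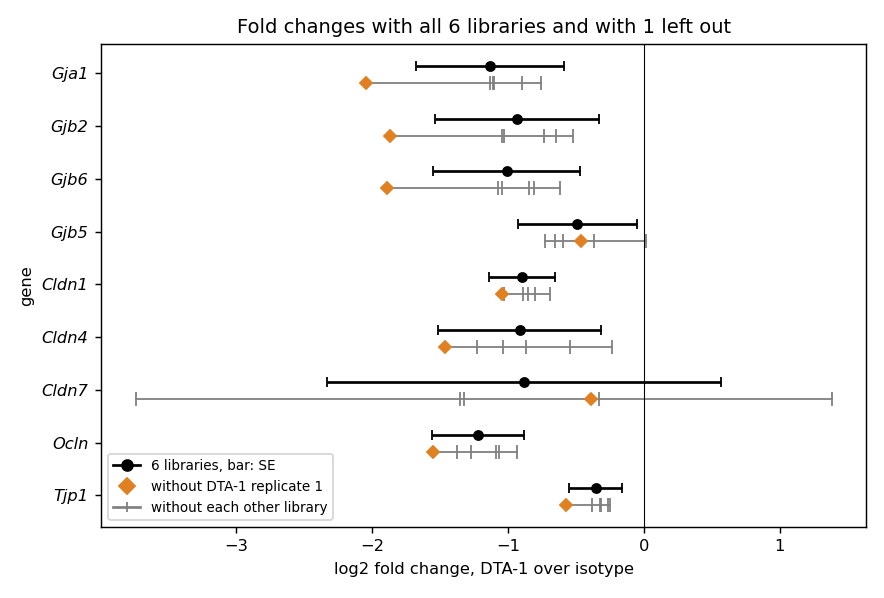
Log2 fold changes of DTA-1 over isotype for the 9 genes. Black points with SE bars use all 6 libraries, orange diamonds leave out DTA-1 replicate 1, and grey ticks leave out each other library. The diamonds of Gja1, Gjb2 and Gjb6 lie near -2.05, -1.87 and -1.89, whereas the ticks of Cldn7 reach both sides of 0.

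Among the 9 genes, edgeR made calls only, and DESeq2 mostly, without DTA-1 replicate 1. Without it edgeR called 2 of the 9 genes, and both fell with DTA-1: Gja1 (log2 fold change -2.05 ± 0.28 SE, adjusted p = 0.0333) and Gjb6 (-1.89 ± 0.32, adjusted p = 0.0434). In that fit 3.31% of all genes were called lower and 0.38% higher. Gjb2 had -1.87 ± 0.42 (adjusted p = 0.0743), Ocln -1.55 ± 0.31 (0.0597), Cldn1 -1.04 ± 0.25 (0.0849) and Tjp1 -0.57 ± 0.13 (0.0781), all in edgeR and none past the threshold. DESeq2, refitted without that library after the data were seen, called 6 of the 9 as lower, namely Gja1, Gjb2, Gjb6, Ocln, Cldn1 and Tjp1, where it called 10.5% of all genes as lower. Without isotype replicate 3 it called Cldn1 alone of the 9 (adjusted p = 0.0167, with 2.05% of all genes called lower). Without DTA-1 replicate 2, DTA-1 replicate 3, isotype replicate 1 or isotype replicate 2 it called none of the 9, with 0.23%, 0.202%, 0.95% and 0.195% of all genes called lower in that order, and with any of the 5 libraries other than DTA-1 replicate 1 left out edgeR called none (background 0%). Without DTA-1 replicate 2 the fold changes of Gja1, Gjb2 and Gjb6 were -0.75, -0.52 and -0.62.

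Set against 11 keratinocyte transcripts of the same library, the groups overlapped in each of the 9 genes. The level of each gene was expressed as log2 CPM minus the mean log2 CPM of the 11 keratinocyte markers, a reference that itself had a median log2 fold change of -0.95 and 0 called genes in edgeR. DTA-1 minus isotype differences on this scale ranged from -0.30 for Gja1 to 0.77 for Tjp1. Exact two-sided permutation p-values lay between 0.2 and 1 (each 1 after Benjamini-Hochberg adjustment over 9), in a design that cannot go below 0.1. For Tjp1 the relative level (log2) was -2.28, -1.64 and -1.27 under DTA-1 and -3.06, -2.44 and -1.99 under isotype. For Gjb2 it was 0.09, -1.21 and 0.21 under DTA-1 and -0.21, -0.45 and 0.05 under isotype, where DTA-1 replicate 2 alone stood low. With 13 differentiation genes such as Krt4, Krt13 and Sprr3 as the reference in place of the keratinocyte markers, Tjp1 was relatively higher in every DTA-1 library (difference 1.04, exact p = 0.1), and the other 8 genes overlapped.

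**Figure D4:**
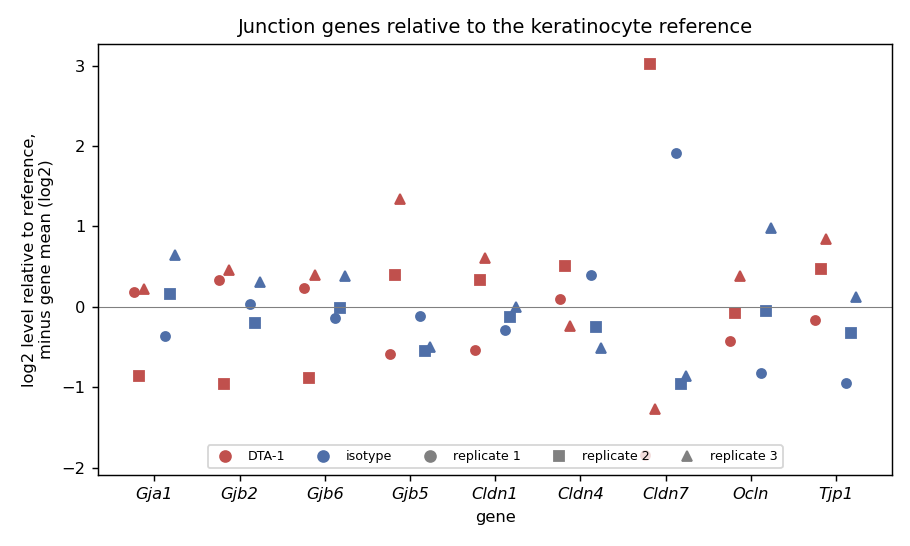
Log2 level of each junction gene relative to the mean of 11 keratinocyte markers in the same library, centred on the gene's mean over 6 libraries. DTA-1 libraries are red and to the left, isotype libraries blue and to the right, and markers give the replicate. Red and blue points overlap in each of the 9 genes, and the Cldn7 points of DTA-1 replicate 2 and isotype replicate 1 lie far above the rest.

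Gjb2 made up most of the connexin RNA in every library, while the connexin total varied widely. Summed over 20 connexin genes, the level was 301, 66.2 and 119 CPM per kb under DTA-1 and 389, 267 and 267 CPM per kb under isotype. Gjb2 made up 65.4% ± 7.02 of that sum under DTA-1 and 68.4% ± 4.99 under isotype, and Gja1 made up 15.9% ± 1.26 under DTA-1 and 19.3% ± 4.12 under isotype (SD, n = 3 each). Gjb6 made up 6.23% ± 0.319 under DTA-1 and 6.83% ± 0.411 under isotype, and the groups overlapped for all 3 genes (exact permutation p of 0.5, 0.3 and 0.2, where 0.1 is the smallest possible). Summed over 23 claudin genes, the level was 67.1, 68.1 and 39.7 CPM per kb under DTA-1 and 118, 78.3 and 70.4 CPM per kb under isotype. Cldn4 held 28.5% ± 12.5 of that sum under DTA-1 and 34.6% ± 13.3 under isotype. Cldn5, the claudin of endothelium, held 15.5%, 23.4% and 33.0% under DTA-1 and 6.15%, 12.8% and 13.9% under isotype, with no overlap (exact two-sided permutation p = 0.1). Its own level was 14.7, 22.6 and 18.6 CPM under DTA-1, so its highest share fell in the library with the lowest claudin sum. The shares of Cldn2 did not overlap either, and were also higher under DTA-1 (exact two-sided permutation p = 0.1). The 8 endothelial markers summed to 230.4 to 364 CPM with DTA-1 and to 224 to 244 CPM with isotype, and their part in the Cldn5 share was not tested.

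**Figure D5:**
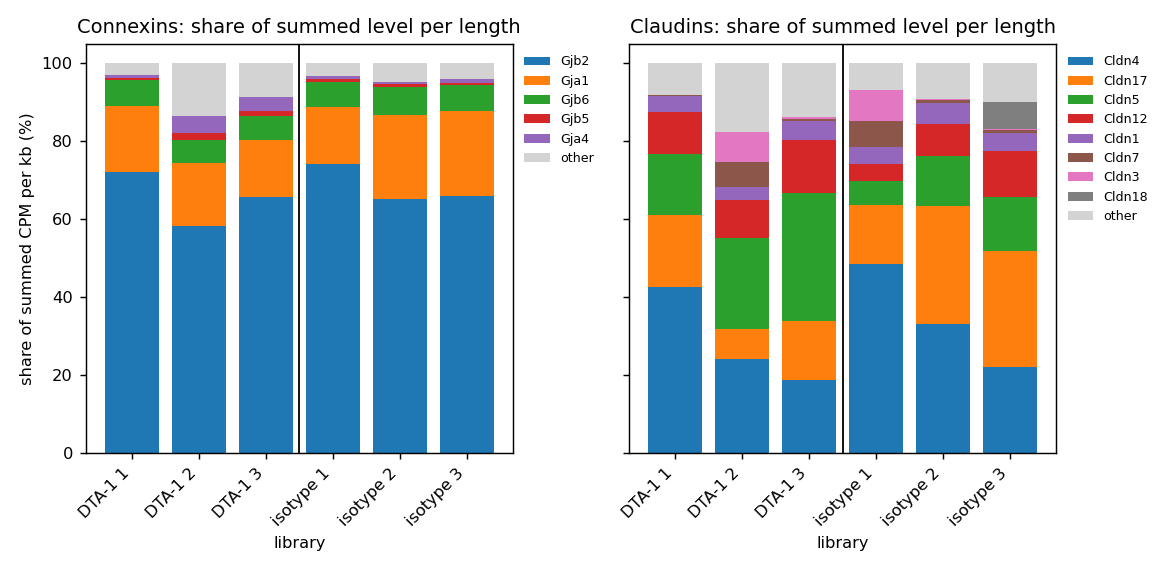
Share of the summed CPM per kb taken by single connexin genes (left) and claudin genes (right) in each library, DTA-1 libraries left of the line. Gjb2 takes 58.2% to 74.2% of the connexin sum in the 6 libraries, and the claudin sum is divided among more genes, with a Cldn5 share whose 3 DTA-1 values all exceed the isotype values.

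The rest of both families and of the junction complexes was taken from lists by family and function. Of 20 other claudin genes 8 were tested, and edgeR called 0 of them in either direction (background 0%). At an unadjusted p under 0.05 it counted 1 as lower (background 7.52%). Their median log2 fold change was 0.20. Cldn17, an anion-selective claudin, stood at 14.5, 6.08 and 6.97 CPM under DTA-1 and 20.8, 27.8 and 24.5 CPM under isotype. Its DTA-1 values were all below the isotype values, as were those of 9.38% of all genes tested. Its log2 fold change was -1.40 ± 0.36 (SE, adjusted p = 0.39 in edgeR), and DESeq2 called it lower (adjusted p = 0.0368). That call was lost in DESeq2 without DTA-1 replicate 2 (adjusted p = 0.353), DTA-1 replicate 3 (0.252), isotype replicate 1 (0.0621) or isotype replicate 2 (0.367). Cldn5 had a log2 fold change of 0.54 ± 0.24 (SE, adjusted p = 0.397 in edgeR). Limma-voom called 0 of the list and DESeq2 called Cldn17 alone, where it called 0.852% of all genes lower and 0.267% higher.

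Of the genes of other tight junction membrane proteins and of scaffolds 0 passed in edgeR. Of 10 other membrane protein genes 9 were tested, 6 with negative fold changes (52.9% of all genes were negative; median -0.41), 0 called by edgeR, DESeq2 or limma-voom, and 2 lower at an unadjusted p under 0.05 in edgeR (background 7.52%). Cxadr, which encodes the coxsackievirus and adenovirus receptor, averaged 25.7 ± 10.1 CPM under DTA-1 and 51.1 ± 5.70 CPM under isotype, and F11r, which encodes a junctional adhesion molecule, 71.5 ± 31.8 CPM under DTA-1 and 136 ± 47.8 CPM under isotype (SD, n = 3 each). Their adjusted p was 0.39 in edgeR, and that of Lsr, a gene of tricellular contacts, was 0.393 (log2 fold change -1.04 ± 0.44 SE). Of 15 scaffold and polarity genes all 15 were tested, 10 had negative fold changes (median -0.49), and edgeR called 0, with 4 lower at an unadjusted p under 0.05 (background 7.52%). The scaffold gene Tjp3 stood at 7.96, 11.2 and 3.76 CPM under DTA-1 and 32.0, 15.9 and 23.2 CPM under isotype. DESeq2 called it lower (adjusted p = 0.0397, background 0.852% lower). Tjp3 did not pass in edgeR (log2 fold change -1.63 ± 0.44 SE, adjusted p = 0.39). DESeq2 lost it without DTA-1 replicate 3 (adjusted p = 0.167), isotype replicate 1 (0.229) or isotype replicate 2 (0.0732). Magi1, another scaffold gene, and Prkci, a polarity kinase gene, had log2 fold changes of -0.71 ± 0.24 and -0.82 ± 0.35 (SE, adjusted p of 0.39 and 0.393 in edgeR). Ybx3, whose protein binds zonula occludens scaffolds and nucleic acid, was the most abundant of this list per length and had 0.64 ± 0.30 (adjusted p = 0.405). Limma-voom called 0 of the list. Without DTA-1 replicate 1 edgeR called Cldn17, Cxadr, Prkci and the polarity gene Crb3 as lower, where 3.31% of all genes were called lower.

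Of 16 other connexin genes 10 were tested, 4 with negative fold changes (52.9% of all genes were negative; median 0.32). EdgeR, DESeq2 and limma-voom called 0 (background 0%, 0.852% lower and 0.267% higher, and 0%). None of the 3 counted any at an unadjusted p under 0.05. The background there was 7.52% lower and 5.21% higher in edgeR, 8.37% and 6.67% in DESeq2, and 8.49% and 5.28% in limma-voom. With so few genes, a count of 0 lies near these shares. Gja4, a connexin of arterial endothelium, had 5.51 ± 1.61 CPM under DTA-1 and 4.28 ± 0.995 CPM under isotype (SD, n = 3 each). Panx1, the tested one of 3 pannexin genes, which form related channels, had 49.8 ± 10.3 CPM under DTA-1 and 38.8 ± 15.6 CPM under isotype (edgeR adjusted p = 0.581).

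The genes with profiles nearest to those of the 9 were looked up among 13208 genes by the root mean square difference of centred log2 CPM over the 6 libraries. Tjp1 had the closest, Ppp4r1 (0.0253) and Mon1b (0.0363). For Cldn1 they were Eml3 (0.0878) and Edem2 (0.0921), for Ocln Fam131c (0.115) and Sh3gl2 (0.13), and for Cldn4 Wdhd1 (0.191) and Anxa8 (0.2). For Gja1 they were Ly6g6c (0.1) and Fabp5 (0.106), for Gjb2 Csta1 (0.179) and Neil3 (0.184), for Gjb6 Neil3 (0.0832) and Efna4 (0.142), and for Gjb5 Isyna1 (0.0996) and Cybc1 (0.105). For Cldn7 they were Wfdc2 (0.433) and Kctd14 (0.523). This difference is not scaled to a gene's own spread, so it tends to be larger for genes that vary more. Centred values ran from -2.51 to 2.975 for Cldn7 and from -0.39 to 0.24 for Tjp1. The distances of different genes therefore do not rank how well their neighbours follow them. Fabp5, which encodes a fatty acid binding protein of keratinocytes, stood at 789, 134 and 258 CPM under DTA-1 and 761, 840.3 and 780.1 CPM under isotype, low in DTA-1 replicates 2 and 3 as Gja1 was.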

How the data were processed

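The authors deposited raw read counts, 1 table of Ensembl genes per library for 6 libraries. All values were tested to be whole numbers, with totals that differ between libraries. The submitters' processing notes list mouse build mm10 and the tools DESeq2 1.14.1, HTSeq 0.6.1p1, STAR and cutadapt 1.13. How they were set, strand included, is not given in the sources used here. None of the 9 genes shares annotated exon bases with another gene in GENCODE M21 (GRCm38), which also gave positions and exon lengths.

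After filterByExpr (count of 10, total of 15) and TMM scaling, antibody was the one term of a robust quasi-likelihood fit (edgeR 4.0.16, R 4.3.3). P-values were adjusted over 15763 genes at 0.05. CPM use TMM-scaled library sizes, and log2 CPM a prior count of 2. DESeq2 1.42.0 and limma-voom (limma 3.58.1), other scalings, no filter, a replicate block and leaving out each library were alternatives. The edgeR step was tested on simulated data. No 2 libraries were alike within counting noise (smallest median chi-square per gene 3.98, against 0.455 for noise). That smallest value was between DTA-1 replicate 1 and isotype replicate 3, of opposite groups. From DTA-1 replicate 1 to DTA-1 replicates 2 and 3 it was 10.5 and 14.1, and to isotype replicates 1 and 2 it was 11.3 and 10.6.

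The 9 genes and all lists were chosen with earlier results of these data known. Named genes were the 9, from each list of other junction genes the 2 with the smallest p and the 2 with the highest level per length, and for each of the 9 the 2 nearest profiles, apart from genes that are not reported here. Cldn2, Cldn3, Gjd4, Epcam, Perp, Pkp1, Krt15, Krt14, Itgb4 and Col17a1 were chosen after their values were seen. So were Muc1, Krt8, Pgc, Acta2, Des, Crb3, the genes of the closing observations and the level ratios. No protein sequences were used here.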

Additional observations from a re-analysis of the deposited data

How the results depend on the processing

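Of the 9 fold changes, all were negative under each of the 12 alternatives except Cldn7 (-3.74 to 1.38 without single libraries) and Gjb5 (-0.73 to 0.016). Their median was -0.91, -1.23 in limma-voom, -1.24 with a replicate block and -1.46 to -0.64 without single libraries. Scaling by library totals alone gave -1.10, with the median of all genes at -0.19 in place of -0.03. EdgeR's count of the 9 called was 0, and 0 to 2 without single libraries. DESeq2's count, refitted without single libraries after the data were seen, was 0 to 6. Over all genes edgeR called 0, and 0 to 601 without single libraries, and DESeq2 called 180. Among other junction genes edgeR called 0, and 0 to 4 without single libraries, and DESeq2 called 2. Leaving out DTA-1 replicate 1 gave each of these highest counts. Without that library edgeR called 3.31% of all genes as lower and DESeq2 10.5%, so the rise was not confined to junction genes. The cause was not tested. Correlations of deviations between libraries of the same replicate number were 0.017, -0.33 and -0.086, which gave no sign of pairing. The replicate block called none of the 9. It lowered the SE of Cldn1, Cldn4, Gja1, Gjb2 and Gjb6, and raised that of Cldn7, Ocln, Tjp1 and Gjb5. The SE of Cldn4 fell the most, from 0.60 to 0.19 (adjusted p = 0.475 in edgeR with the block), so pairing in single genes is not excluded.

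Differences relative to keratinocyte markers changed sign without single libraries for Cldn7 (-1.59 to 0.88), Ocln (-0.50 to 0.40), Gja1 (-0.55 to 0.058), Gjb2 (-0.36 to 0.35) and Gjb6 (-0.40 to 0.24). With the differentiation genes as reference they were 0.21 for Cldn7, 0.20 for Ocln, 0.17 for Gjb2 and 0.11 for Gjb6. None of these passed a test. Reads per library were as few as 6 for Cldn7 and 41 for Gjb5, which limits the precision of both.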

Other observations

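Cldn18, the claudin of stomach epithelium, had 21.9 CPM in isotype replicate 3, and 0.113 CPM or less in each of the other libraries. The stomach genes Gkn1 (457 CPM), Atp4a (173 CPM) and Muc5ac (36.1 CPM) were also highest in that library, and were at 1.88 CPM or less elsewhere. The gastric peptide gene Tff2 instead stood at 292 CPM in DTA-1 replicate 2, against 25.2 CPM in isotype replicate 3. Cldn6, Cldn13, Cldn22 and Cldn24 had no reads in any library, nor had Gje1 and Panx3.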
